A study of Mus musculus with 4 samples.

Results

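Nos1, Tacr1, Chodl and Oxt are 4 of the 43348 genes counted in single cells of the Nkx2.1 lineage from mouse frontal cortex and hippocampus. They were picked because Oxt molecules had been seen in a group of cells that express Nos1, so they were chosen by their own UMI counts (unique molecular identifiers, 1 for each captured RNA molecule). Their levels and their detection in the same cells are therefore described without a test, and the tests concern genotype and region. Nos1 encodes neuronal nitric oxide synthase, whose diffusible product activates the soluble guanylyl cyclase that makes cGMP. Tacr1 encodes the receptor for substance P, a peptide cleaved from the Tac1 precursor, and Chodl encodes chondrolectin, a membrane protein with a C-type lectin domain; these genes are known together from sparse somatostatin neurons with long axons, and Nos1 also from ivy and neurogliaform cells. Oxt encodes the precursor of oxytocin and its carrier neurophysin, and is known from magnocellular and other neurons of the hypothalamus.

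The cells came from juvenile mice of both sexes (postnatal days 18 to 20), were sorted by FACS for TdTomato and were counted with the 10x Genomics 3′ assay. WT mice carried Nkx2.1-Cre and the Ai14 TdTomato reporter, and Grin1-null mice carried Nkx2.1-Cre, Ai14 and Grin1 fl/fl, which removes the obligatory NMDA receptor subunit from the same lineage. Nkx2.1 drives Cre in progenitors of the medial ganglionic eminence, so oligodendrocytes and other descendants carry the label along with interneurons. Each library pooled several animals of 1 genotype, and a cortex and a hippocampus library with the same replicate number came from the same animals. There were 3 WT and 2 null libraries for each region, and replicate 1 was made with an earlier version of the 10x chemistry than replicates 2 and 3, so chemistry and replicate cannot be told apart.

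The WT cortex libraries held 1277, 3851 and 3960 barcodes with 9306756, 14212183 and 28057207 UMIs in replicates 1, 2 and 3, and the null cortex libraries held 181 and 2898 barcodes with 1488601 and 25688337 UMIs. WT hippocampus had 2221, 4600 and 3159 barcodes with 10555408, 8782181 and 20639002 UMIs, and null hippocampus 404 and 4436 barcodes with 3856745 and 47338167 UMIs. WT hippocampus replicate 2 stood apart, with a median of 1479 UMIs per barcode against 2903 to 9508 in the other libraries. Of 45 pairs of libraries, 22 shared any barcode sequence, at most 12 in a pair and 95 in all. Filters on genes per cell and mitochondrial share kept 26201 of 26987 barcodes.

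The kept cells formed 35 clusters, made without the counts of the member genes, and clusters were named from marker genes. SST-like clusters (somatostatin interneurons) held 5909 cells with a median of 7354 UMIs, NGFC-like clusters (neurogliaform cells) 2198 cells with 6938, and PVALB-like clusters (parvalbumin interneurons) 2202 cells with 8460.5. Another 8568 cells were oligodendrocytes and 3367 oligodendrocyte precursors, a lineage that the label also covers, and 986 were glutamatergic-like. A Th-led cluster of 761 cells had more PVALB than own markers among its top genes and was kept out of these classes; it made up 0.959 to 24.2% of SST-like and Th-led cells in a library. The cells of WT hippocampus replicate 2 lay in other clusters of their classes than the rest, with 73.1% of its SST-like cells in a cluster that held 2.27 to 28% elsewhere, and 99.4% of its NGFC-like cells in the smaller NGFC-like cluster. A doublet caller (Scrublet) marked 249 of the 26201 cells (0.95%).

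Grin1, the deleted gene, was counted first as a check of the labels. In SST-like cells its summed level, in CPM (UMIs of the gene per 1000000 UMIs of the cells summed), was 158, 257 and 239 in WT cortex and 39.5 and 31.8 in null cortex, and 121, 177 and 164 in WT hippocampus and 20.4 and 22.7 in null hippocampus. In hippocampal NGFC-like cells it was 120, 111 and 134 CPM in WT and 33.6 and 15.8 in null. WT and null libraries did not overlap in any of the 3 populations. The log2 change from WT to null was −2.61 ± 0.32 (SE) in cortical SST-like cells (edgeR, Benjamini-Hochberg adjusted p 0.0353), −2.81 ± 0.33 in hippocampal SST-like cells (adjusted p 0.020) and −2.39 ± 0.42 in hippocampal NGFC-like cells (adjusted p 0.904). Whether the 3′ tags counted here lie in the deleted part of the gene is not given in the sources used here.

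In the GRCm38 annotation the members lie on different chromosomes and all on the plus strand. Nos1 (ENSMUSG00000029361.14) spans chr5:117781032-117958840 and had 23917 UMIs in 3305 barcodes, and Tacr1 (ENSMUSG00000030043.9) spans chr6:82402334-82560104 and had 2063 UMIs in 896 barcodes. Chodl (ENSMUSG00000022860.10) spans chr16:78930948-78951733, with 3356 UMIs in 609 barcodes. Oxt (ENSMUSG00000027301.7) is the short one at chr2:130576173-130577054, with 1949 UMIs in 92 barcodes. Its neighbour Avp, which encodes the vasopressin precursor, lies on the other strand 3565 bases away with the 3′ ends facing each other, and the longest stretch of bases their transcripts share is 127.

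Nos1 was counted in every library, at 1271, 5504 and 3628 UMIs in WT cortex, 203 and 7775 in null cortex, 224, 717 and 1070 in WT hippocampus and 198 and 3327 in null hippocampus. Over all UMIs of the library this was 137, 387 and 129 CPM in WT cortex, 136 and 303 in null cortex, 21.2, 81.6 and 51.8 in WT hippocampus and 51.3 and 70.3 in null hippocampus, so each cortex library was above each hippocampus library. Tacr1 had 96, 548 and 295 UMIs in WT cortex, 29 and 663 in null cortex, 19, 38 and 68 in WT hippocampus and 13 and 294 in null hippocampus. Chodl had 228, 679 and 603 UMIs in WT cortex, 30 and 1429 in null cortex, 22, 25 and 21 in WT hippocampus and 17 and 302 in null hippocampus. Oxt was unlike the others in that 1 library held most of it, with 0, 1874 and 8 UMIs in WT cortex, 0 and 7 in null cortex, 2, 13 and 2 in WT hippocampus and 1 and 42 in null hippocampus.

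Nos1 expression was led by the SST-like cluster in which Chodl was also highest, called here the Chodl-leading cluster. These 431 cells (median 14354 UMIs, 1 marked as a doublet) held Nos1 at 2245 CPM, with libraries from 1867 to 3169. The unnamed cluster in which Oxt was highest, called here the Oxt-leading cluster, had 398 cells (median 5265 UMIs, 6 marked as doublets) and Nos1 at 1129 CPM, with libraries from 31.5 to 2241. The ranges overlapped across libraries, but in each of the 5 libraries with enough cells of both clusters Nos1 was higher in the Chodl-leading one, at 2413 against 1750, 3169 against 2241 and 2242 against 1870 CPM in WT cortex, 1867 against 1538 in null cortex replicate 2 and 1886 against 31.5 in null hippocampus replicate 2. The NGFC-like clusters followed at 254 CPM (132 to 309) and 214 CPM (147 to 328), which overlapped each other. The Th-led cluster, at 77.4 CPM (54.4 to 108), lay below both NGFC-like clusters in every library with enough cells. An unnamed cluster of 512 cells with a median of 655.5 UMIs had 67.3 CPM and spanned 0 to 339, and the SST-like clusters other than the Chodl-leading one had at most 38.4 CPM.

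Tacr1, the receptor, was highest in the same pair of clusters in the other order, at 214 CPM in the Oxt-leading cluster (libraries 0 to 491) and 125 CPM in the Chodl-leading cluster (92.5 to 190). The ranges overlapped across libraries; in the 4 cortical libraries with enough cells of both, Tacr1 was higher in the Oxt-leading cluster, and in null hippocampus replicate 2 it was lower. A PVALB-like cluster had 19.6 CPM (4.43 to 38.4) and the NGFC-like clusters 16.0 CPM (3.88 to 28.3) and 15.5 CPM (10.6 to 26.5), which overlapped; the shallow unnamed cluster had 19.9 CPM (0 to 96.4) and all other clusters at most 4.32 CPM. Chodl had 422 CPM in the Chodl-leading cluster (243 to 498) and 152 CPM in the Oxt-leading cluster (19.1 to 329). It was low elsewhere, at 15.0 CPM in the shallow unnamed cluster and at most 4.60 CPM in every other one. No Chodl UMI was found in 2198 NGFC-like cells, which allows a share of up to 0.136% of cells with a captured UMI and does not limit the share that expresses the gene.

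**Figure D1:**
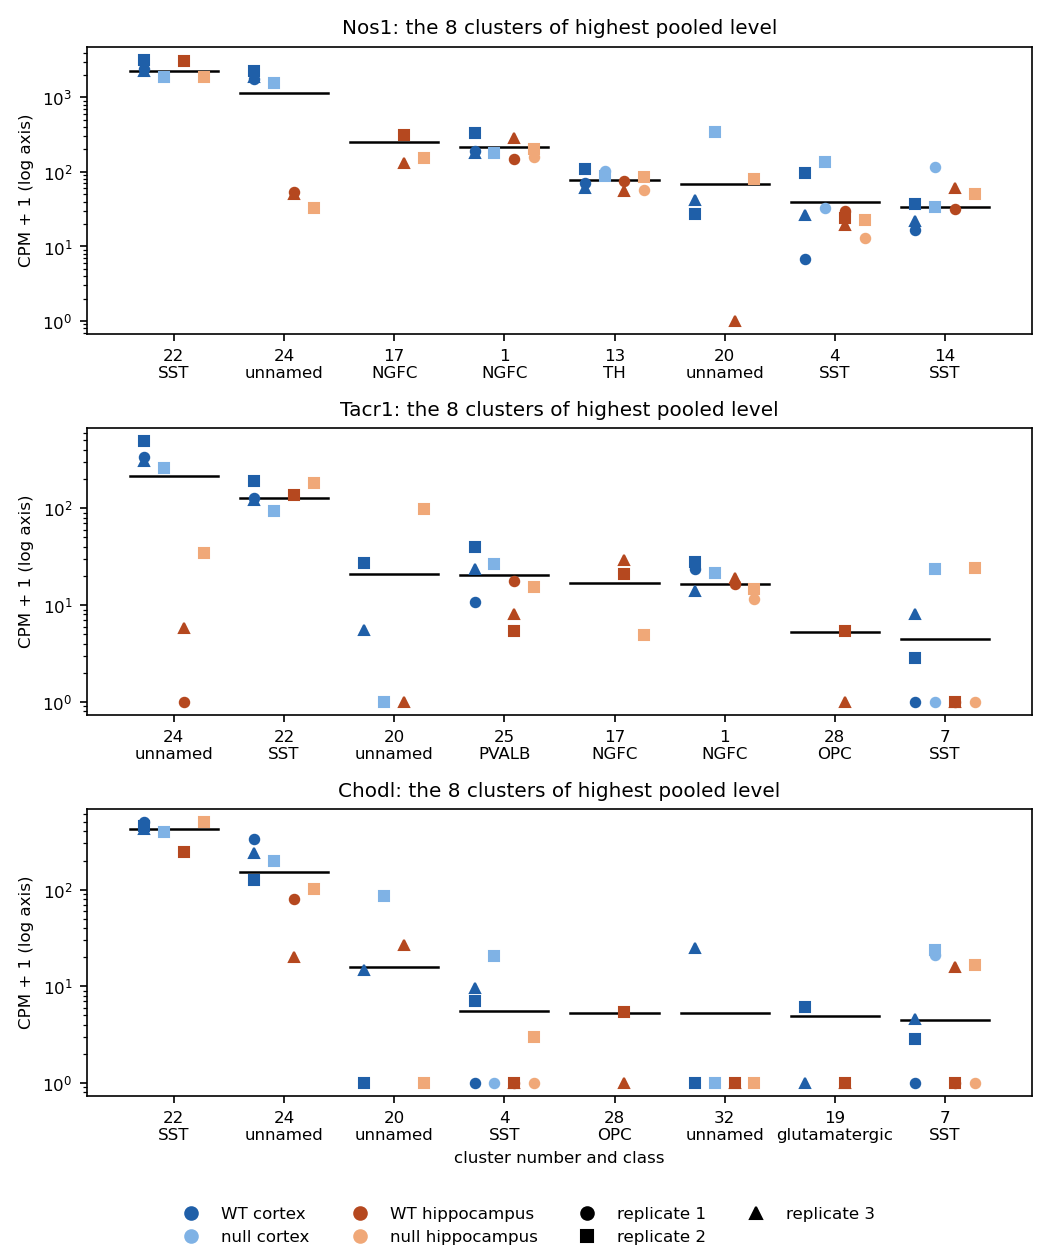
Level of Nos1, Tacr1 and Chodl (CPM + 1, log axis) in the 8 clusters with the highest pooled level of each gene; points are libraries with enough cells, bars the pooled level. The Chodl-leading cluster (22) and the Oxt-leading cluster (24) lead all 3 genes, with pooled Nos1 at 2245 and 1129 CPM, and for Nos1 and Tacr1 the hippocampal libraries of the Oxt-leading cluster lie far below its cortical ones.

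Over all libraries pooled, Nos1 was at 303 CPM in SST-like and 218 CPM in NGFC-like cells, but this order held in WT cortex and null cortex replicate 2 and was the reverse in each hippocampal library. Nos1 was detected in 17.0% of SST-like, 62.5% of NGFC-like and 10.8% of PVALB-like cells, against 0.642% of oligodendrocytes, whose median was 5446.5 UMIs. After every cell was thinned to 1000 UMIs, which kept 5493 of 5909 SST-like, 2036 of 2198 NGFC-like, 2173 of 2202 PVALB-like cells and 7872 of 8568 oligodendrocytes, the shares were 8.34% in SST-like, 19.5% in NGFC-like, 1.61% in PVALB-like cells and 0.102% in oligodendrocytes. Tacr1 was detected in 6.24% of SST-like and 10.8% of NGFC-like cells (thinned 1.22% and 1.42%), against 0.117% of oligodendrocytes (0.0508%). Chodl was detected in 7.31% of SST-like cells (thinned 2.51%) and 0.0584% of oligodendrocytes (0.0381%). Oxt was detected in 0.327% of oligodendrocytes.

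Most cells with Chodl or Tacr1 also had Nos1, but most cells with Nos1 had neither partner detected. Of 597 kept cells with a Chodl UMI, 85.6% also had a Nos1 UMI (72.6% after thinning), and of 869 cells with a Tacr1 UMI, 76.2% did (67.5% after thinning). In the other direction, 15.9% of 3218 cells with Nos1 had Chodl and 20.6% had Tacr1. Among SST-like cells the shares were 94.4% of 432 cells with Chodl and 89.2% of 369 cells with Tacr1. In the Chodl-leading cluster, 426 of 431 cells had Nos1, 393 Chodl, 308 Tacr1 and 296 all 3. SST-like cells with a Chodl UMI had Nos1 at 2122 CPM, and those without at 31.3 CPM, so within this class Nos1 was high where Chodl was detected. In NGFC-like cells Nos1 was at 233 CPM with a Tacr1 UMI and 215 CPM without, so there its level hardly differed with Tacr1.

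Oxt was concentrated in very few cells. Of 1949 UMIs, 1856 (95.2%) were in 4 cells of WT cortex replicate 2 with 292, 460, 466 and 638 Oxt UMIs, which made up 24.5 to 40.8% of their 1193 to 1858 UMIs. All 4 fell in the Oxt-leading cluster and none was marked as a doublet. None had a UMI of Gad1, Gad2 or Slc32a1 (GABA synthesis and vesicular transport), Sst, Npy, Lhx6, Slc17a6, Slc17a7, Chat or Mbp, of the TdTomato transcript, or of Tacr1 or Chodl, and 2 of them had 1 Nos1 UMI. Genes of a list of hypothalamic neurons were counted in them, among them Otp, Sim1, Arnt2 and Pou3f2, transcription factors of the developing neuroendocrine hypothalamus, and Gal, the galanin precursor. That list had 7 of 19 genes with a UMI in these cells, Oxt, which chose the cells, and Avp included. Of the cholinergic list 1 of 9 genes (Ache) had a UMI, of the striatal list 0 of 7 and of the genes known from Sst Chodl cells 0 of 13. At this depth most genes have no UMI in 4 cells, so these counts are a description.

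The other 88 barcodes with Oxt held 93 UMIs, 86 of them with 1 UMI each, 1 with 2 and 1 with 5. Over all barcodes this was 0.547 CPM (exact Poisson 95% interval 0.442 to 0.671, counting error only), with libraries from 0 to 1.48 CPM. It was found in several cell types, with 0.50 CPM (0.335 to 0.718) in the oligodendrocyte lineage and 0.452 (0.327 to 0.609) in interneurons, here the SST-like, NGFC-like, PVALB-like and Th-led cells together. The Oxt-leading cluster without the 4 cells was at 2.99 CPM (1.29 to 5.88), but from only 8 UMIs. Of these, 7 were in WT cortex replicate 2 and 5 of those in 1 cell, so this level rested on 1 library. Cells of all unnamed clusters without the 4 cells held 9 UMIs, at 2.68 CPM (1.23 to 5.09), and these include the same 8. Interneurons with a Nos1 UMI had Oxt at 0.490 CPM (0.280 to 0.796) and those without at 0.432 (0.285 to 0.629), and the Chodl-leading cluster was at 0.160 (0.00404 to 0.889). Null hippocampus replicate 2, which held 42 of these UMIs, had 0.887 CPM over all its barcodes, 0.779 in its oligodendrocyte lineage, 0.895 in interneurons with Nos1 and 0.902 in those without. These are descriptions of pooled cells, and the source of these UMIs was not tested.

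In all, 40.0% of the Oxt UMIs (780 of 1949) were in cells with a Nos1 UMI, and 23.7% (22 of 93) without the 4 cells. Of the 780, 466 and 292 were in 2 of the 4 cells, which had 1 Nos1 UMI each. Of 85 kept cells with Oxt, 19 (22.4%) had Nos1, beside 12.2% of all 26987 barcodes, with no match for depth or cell type. In the Oxt-leading cluster, 8 of 398 cells had an Oxt UMI (2.01%, Wilson 95% interval 1.02 to 3.92%); its level was 5416 CPM in WT cortex replicate 2 and 0 to 2.88 CPM in the other libraries with enough cells. Without WT cortex replicate 2 the share of Oxt UMIs in cells with Nos1 was 24% and the share of the cluster with Oxt 0.348%. With stricter cell filters (at least 1000 genes and under 10% mitochondrial UMIs) they were 3.23% and 0.651%. Of the 4 cells, these filters kept only the 1 with 460 Oxt UMIs, which had no Nos1 UMI. Avp showed a like pattern in other cells of the same library, with 145, 119, 58, 15 and 6 UMIs in 5 cells out of 406 UMIs in 63 cells, and the cell with 58 was the one with 5 Oxt UMIs.

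The Oxt-leading cluster held cells of different make-up, which a split at 5 Nos1 UMIs per cell shows; the split was chosen after the values were seen. The 121 cells with 5 or more Nos1 UMIs (median 7887 UMIs) had Nos1 at 2398 CPM, Tacr1 at 404 and Chodl at 280, with Sst at 41204, Npy at 39103 and Lhx6 at 433 CPM, and the TdTomato transcript in 114 of them. Oxt had 2 UMIs there, in 2 cells, and Avp, Vip and Slc17a6 had 0. The 277 cells with fewer (median 3675 UMIs) had Nos1 at 49.0 CPM and Oxt at 1284 CPM. Without the 4 cells Oxt was at 4.16 CPM there, all of it 6 UMIs in 2 cells of WT cortex replicate 2. The 277 cells also held Avp at 229 CPM, Trh (thyrotropin-releasing hormone) at 111, Vip at 155, the transcription factors Isl1 and Lhx8 at 80.0 and 69.7 and the glutamate transporter Slc17a6 at 65.5 CPM. Avp had a UMI in only 6 of the cluster's 398 cells, with 145, 119, 58 and 6 UMIs in cells of WT cortex replicate 2. The 4 cells had too few UMIs in all to reach 5 of Nos1 except at a very high level, and 2 of them had 1, so this split does not show whether they lack Nos1. At clustering resolutions of 0.6 and 1.4 both parts again shared 1 cluster.

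Libraries differed in which part they held. The cells with 5 or more Nos1 UMIs numbered 9, 42 and 25 in WT cortex, 2 and 42 in null cortex, 0, 0 and 1 in WT hippocampus and 0 and 0 in null hippocampus, and the others numbered 2, 69 and 28, then 3 and 26, then 12, 2 and 79, then 2 and 54. The first part was thus counted almost wholly in cortex. Markers of other neurons were in the cluster as a whole. The hypothalamic list had 15 of 19 genes detected and summed to 1038 CPM, or 345 without the 4 cells. Avp, with a UMI in 6 of all 398 cells, then led it at 124 CPM, and Fezf1, Pmch, Kiss1 and Nr5a1 were at 0. By library it summed to 278, 6582 and 196 CPM in WT cortex, 103 and 325 in null cortex, 338, 0 and 218 in WT hippocampus and 0 and 73.4 in null hippocampus. The cholinergic list had 9 of 9 genes at 541 CPM, led by Ache, and by library 350, 808 and 319, then 2875 and 410, then 104, 500 and 842, then 0 and 195 CPM. In the Chodl-leading cluster the hypothalamic list had 12 of 19 genes at 174 CPM, led by Pou3f2, and the cholinergic list 5 of 9 at 432 CPM. The part of these other neurons in the Oxt signal was not tested.

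The Nos1-rich part of the Oxt-leading cluster and the Chodl-leading cluster both held Nos1, Tacr1 and Chodl. The levels of Galr1, Npy2r, Crhbp and Oxtr, genes shown by library after their values were seen, differed between them. In WT cortex replicates 2 and 3 and null cortex replicate 2, Nos1 was at 3801, 2942 and 1916 CPM in the Nos1-rich part and 3169, 2242 and 1867 CPM in the Chodl-leading cluster, and Tacr1 at 677, 487 and 315 against 190, 120 and 92.5 CPM. Chodl was at 212, 382 and 248 against 455, 425 and 394 CPM. Tacr1 was higher and Chodl lower in the Nos1-rich part in each of these libraries. Galr1, a galanin receptor, was at 258, 257 and 177 against 15.3, 5.65 and 8.35 CPM, and Npy2r, a receptor for neuropeptide Y, at 106, 115 and 161 against 3.05, 1.88 and 3.13 CPM. Crhbp, the binding protein of corticotropin-releasing hormone, ran the other way at 60.7, 55.2 and 352 against 2725, 4042 and 3067 CPM. Oxtr, the oxytocin receptor, had 0 UMIs in the Nos1-rich part of these libraries and 89.2, 81.0 and 83.8 CPM in the Chodl-leading cluster. These cells were split by Nos1, so the differences are descriptions.

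**Figure D2:**
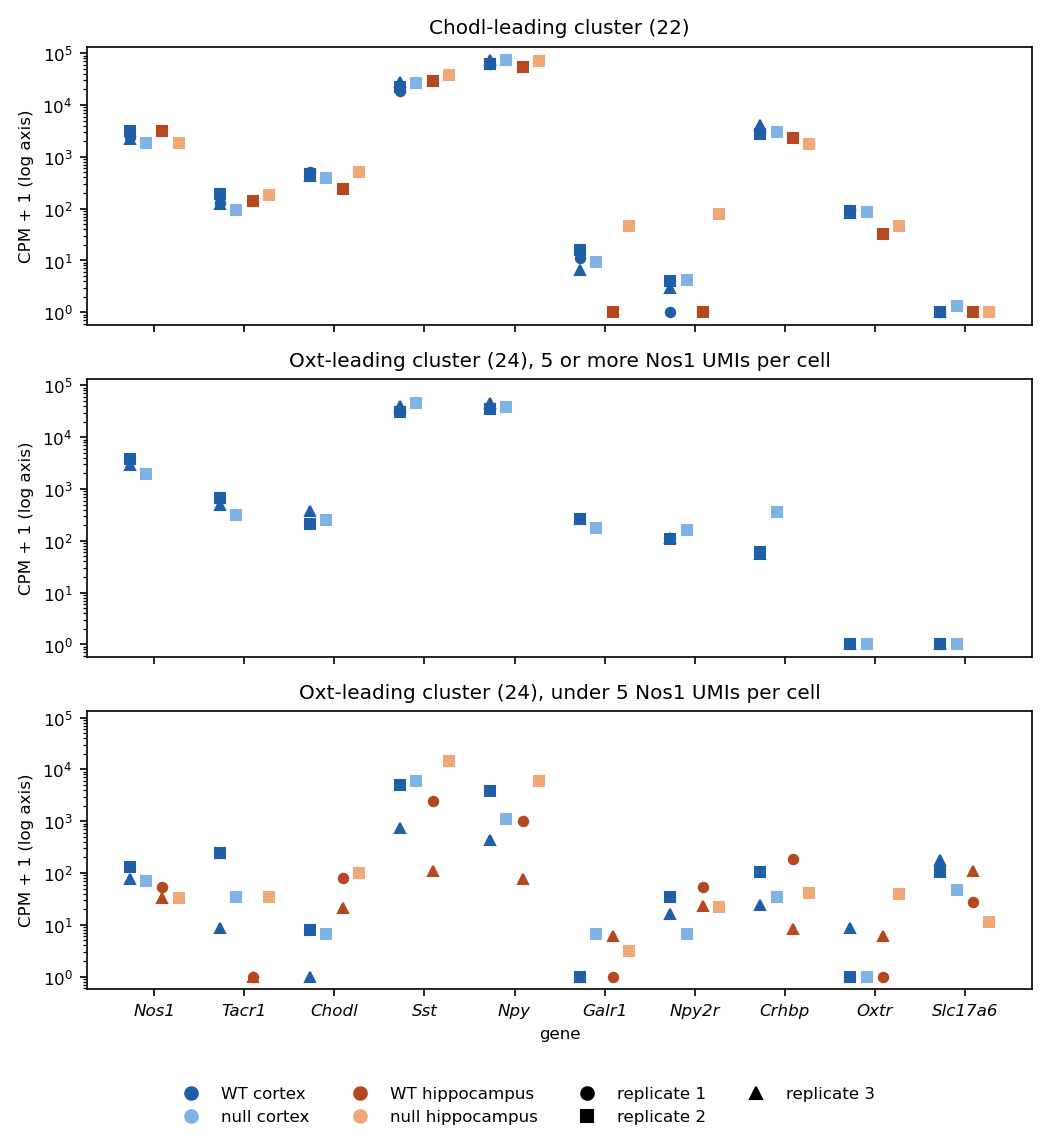
Level of 10 genes (CPM + 1, log axis) in the Chodl-leading cluster and in the parts of the Oxt-leading cluster with 5 or more and with fewer than 5 Nos1 UMIs per cell; points are libraries with enough cells. The Nos1-rich part holds Galr1 and Npy2r at over 100 CPM and no Oxtr UMI, while the Chodl-leading cluster holds Crhbp at 1733 to 4042 CPM.

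The 10 genes with the largest ratio of level (CPM + 5) in the Oxt-leading cluster to the highest interneuron cluster were Oxt (109), Avp (19.0), Zic1 (17.9), A230065H16Rik (9.99), Isl1 (8.56), Six3 (8.30), Trh (7.98), Nrn1 (7.91), Rprm (6.34) and Galr1 (5.86). Without the 4 cells Oxt left this list and Slc17a6 (5.64) entered it, and Avp was found in only 6 of 398 cells. The 10 genes came from different cells of the cluster: 80 of 84 cells with Galr1 had 5 or more Nos1 UMIs, against 1 of 78 with Zic1 and 1 of 36 with Isl1. Over the 35 clusters, the genes most like Nos1 (Pearson r of log2(CPM + 1)) were Npy (0.888), Col25a1 (0.866), Glra2 (0.862), Scn9a (0.858) and Pam (0.844), the last of which amidates peptide hormones. For Tacr1 they were Scn9a (0.815), Nos1 (0.795), Col25a1 (0.788), Vwc2l (0.753) and Npy2r (0.747), and for Chodl Syt6 (0.838), Wnt2 (0.824), Galr1 (0.803), Gpr126 (0.797) and Acrbp (0.757). For Oxt they were Isl1 (0.918), A230065H16Rik (0.859), Trh (0.833), Slc18a3 (0.783) and Avp (0.773). Without the 4 cells the gene most like Oxt was Synpo (0.561), and r of Oxt with Nos1 went from 0.407 to 0.198. The clusters share libraries and differ in depth, so these values carry no test.

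Within SST-like cells, Nos1 stood at 214, 741 and 197 CPM in WT cortex (mean 384 ± 309, SD, n = 3), 146 and 782 in null cortex (464 ± 450, n = 2), 42.8, 173 and 35.0 in WT hippocampus (83.7 ± 77.7) and 38.8 and 89.2 in null hippocampus (64.0 ± 35.7). Tacr1 was at 11.4, 46.9 and 11 CPM in WT cortex, 3.70 and 38.7 in null cortex, 2.55, 6.48 and 1.96 in WT hippocampus and 3.06 and 8.56 in null hippocampus. Chodl was at 43.0, 102 and 37.3 CPM in WT cortex, 14.8 and 162 in null cortex, 12.1, 11.5 and 1.96 in WT hippocampus and 15.3 and 19.3 in null hippocampus. Replicate 2 was the highest for Nos1 and Tacr1 in each group, and WT cortex was above WT hippocampus in every library for each gene. The share of all genes that separate the regions in this way was not counted. The share of SST-like cells in the Chodl-leading cluster was 6.25, 12.8 and 4.27% in WT cortex and 3.0 and 26.8% in null cortex. It was 0.418, 2.78 and 0.671% in WT hippocampus and 2.50 and 2.52% in null hippocampus. In cortex this share ordered the libraries of each genotype as each of the 3 genes did. In WT hippocampus it did not, and in null hippocampus the share hardly differed. In NGFC-like cells Nos1 was at 185, 328 and 178 CPM in WT cortex, 172 in the 1 null cortex library with enough cells, 151, 310 and 277 in WT hippocampus and 159 and 203 in null hippocampus. The null cortex library lay below each WT cortex library, and the other groups overlapped. Tacr1 in NGFC-like cells was at 22, 26.1 and 12.3 CPM, then 19.5, then 15.3, 19.5 and 18.4, then 10.3 and 13.5 CPM.

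**Figure D3:**
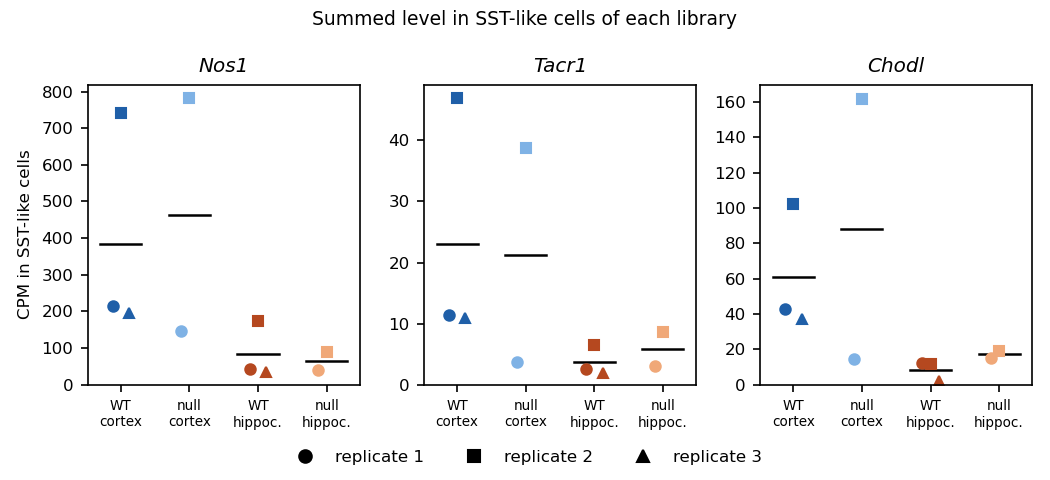
Summed level (CPM) of Nos1, Tacr1 and Chodl in the SST-like cells of each library; points are libraries, bars group means. Nos1 in null cortex spans 146 to 782 CPM, wider than the gap between the genotype means of 384 and 464 CPM.

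Region was compared in WT mice, to ask whether the same class differs between hippocampus and cortex. In SST-like cells all 3 tested members had lower values in hippocampus, with a log2 change of Nos1 of −2.23 ± 0.73 (SE; edgeR, Benjamini-Hochberg adjusted p 0.325), Tacr1 −2.72 ± 0.72 (adjusted p 0.186) and Chodl −2.97 ± 0.63 (adjusted p 0.0936). A gene counted as called at an adjusted p under 0.01 and a log2 change, in either direction, of 0.144 or more. By this rule 0 of the 3 members were called by edgeR, beside 6 of 11630 genes (0.0516%), 5 higher and 1 lower. There 3 members and 944 genes had an unadjusted p under 0.05. DESeq2 called 160 of 21470 genes, with Tacr1 (adjusted p 0.00894) and Chodl (0.000233) among them and Nos1 not (0.0330). Because a cortex and a hippocampus library of 1 number came from the same animals, the edgeR fit with the replicate number as a block stands beside it: it called 429 genes (3.69%), 241 higher and 188 lower, and all 3 members, Nos1 at −2.36 ± 0.20 (adjusted p 2.15e-07), Tacr1 at −2.64 ± 0.32 (1.56e-05) and Chodl at −3.02 ± 0.31 (2.95e-06). The edgeR fit without the low-count filter called 264 of 21482 genes, among them Nos1 (adjusted p 2.60e-06), Tacr1 (3.83e-06) and Chodl (2.31e-09). Oxt was removed by the filter on low counts.

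Without the Chodl-leading cluster, an alternative chosen after seeing the data, the change of Nos1 was 0.12 ± 0.60. Over all libraries, null included, the cells of that cluster held 14071 of the 15180 Nos1 UMIs of the class. In the WT libraries of this test they held 944, 4156 and 2381 Nos1 UMIs in cortex and 19, 293 and 37 in hippocampus. The value of 0.12 describes the remaining cells and does not test where the difference lies. Tacr1 and Chodl had too few counts there to be tested. The count of 6 called genes also rested on single libraries: it was 0 without WT cortex replicate 1, 2 or 3 or WT hippocampus replicate 3, 3 without WT hippocampus replicate 1, and 11 without WT hippocampus replicate 2. In NGFC-like cells, where Chodl and Oxt were removed by the filter, the changes were smaller than their errors, with Nos1 at 0.16 ± 0.37 and Tacr1 at −0.08 ± 0.42. There edgeR called 0 of 2 members and 0 of 7963 genes (0%), with 216 genes at an unadjusted p under 0.05, 3 called by DESeq2 and 6 (0.0753%) with the block.

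In the blocked fit of the SST-like region test, the genes known from Sst Chodl cells gave 7 of 13 called lower and none higher (median log2 change −1.42, against 0.00 over all genes): Npy at −2.36, Hcrtr1, an orexin receptor, at −1.87, Oxtr at −1.85, Penk, the enkephalin precursor, at −1.82, Ptn at −1.61, Rln1 at −1.42 and Crhbp at −1.15. Over all genes 429 of 11630 (3.69%) were called in this fit. Of 21 genes of nitric oxide and cGMP, 3 were called higher in hippocampus, Gucy1a3 (a guanylyl cyclase subunit) at 1.06, Pde9a at 1.68 and Ddah2 at 1.08, and 3 lower, Nos1 and the phosphodiesterase Pde1a at −1.31 and the kinase Prkg2 at −1.38. Among 5 tachykinins and receptors, Tac1 was called higher at 1.5 and Tacr1 and Tac2 (−2.11) lower, and of the 2 layilin family genes Layn was called higher at 2.13 and Chodl lower. Called lower were also 1 of 2 oxytocin and vasopressin genes (Oxtr), 2 of 5 hypothalamic genes (Crh at −1.70 and Pou3f2 at −3.69), 1 of 2 cholinergic genes (Slc5a7 at −3.13) and 2 of 4 striatal genes, Penk among them. Peptide processing genes and the neighbours of Oxt gave 0 called by edgeR in either fit, with 0 of 10 and 1 of 6 at an unadjusted p under 0.05 without the block.

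Without the block, no gene of any list was called by edgeR in the SST-like region test, and the numbers at an unadjusted p under 0.05, beside 944 of all 11630 genes, were 6 of 21 for nitric oxide and cGMP (median −0.01, against 0.02 over all genes), 3 of 5 for tachykinins and receptors (−0.15), 1 of 2 for oxytocin and vasopressin genes (−0.58), 7 of 13 for Sst Chodl genes (−1.10), 2 of 2 for the layilin family (−0.36), 2 of 5 hypothalamic (−0.21), 1 of 2 cholinergic (−1.76) and 3 of 4 striatal (−1.25). In the NGFC-like region test these were, beside 216 of all 7963 genes, 1 of 16 for nitric oxide and cGMP (median 0.04, against 0.02 over all genes), 0 of 4 tachykinin genes (0.25), 0 of 1 oxytocin and vasopressin gene (−0.24), 1 of 9 peptide processing genes (0.16), 1 of 4 Sst Chodl genes (0.16), 0 of 5 neighbours of Oxt (−0.12), 1 of 3 hypothalamic (−0.27), 0 of 1 cholinergic (0.27) and 0 of 1 striatal (−0.27). No layilin family gene could be tested there, and none of the list genes was called with the block.

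Genotype was compared within each region, to ask what loss of Grin1 does to the class; Oxt was removed by the filter in each test, and Chodl in NGFC-like cells. In cortical SST-like cells the log2 change from WT to null was 0.32 ± 0.79 (SE) for Nos1, 0.13 ± 0.73 for Tacr1 and 0.65 ± 0.71 for Chodl (edgeR, Benjamini-Hochberg adjusted p 1.0 for each). In hippocampal SST-like cells it was −0.34 ± 0.83 for Nos1 (adjusted p 0.996), 0.94 ± 0.94 for Tacr1 (0.963) and 1.16 ± 0.87 for Chodl (0.963), and in hippocampal NGFC-like cells −0.45 ± 0.39 for Nos1 and −0.54 ± 0.41 for Tacr1 (adjusted p 0.961). In cortical SST-like cells each change was smaller than its error, and with the replicate number as a block the changes were −0.22 for Nos1, −0.44 for Tacr1 and −0.0090 for Chodl. Without null cortex replicate 2 the cortical changes were −1.37 for Nos1, −2.60 for Tacr1 and −2.01 for Chodl; without WT cortex replicate 1 or 3 that of Tacr1 was −0.14 or −0.21. In hippocampal SST-like cells Nos1 was at 0.81 without WT replicate 2 and 0.07 without null replicate 1, and Tacr1 at −0.15 without null replicate 2.

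By edgeR 0 members and 0 of 12488 genes (0%) were called in cortical SST-like cells, with 0 members and 286 genes at an unadjusted p under 0.05 and 3 genes called by DESeq2. In hippocampal SST-like cells 0 members and 0 of 12488 genes (0%) were called, with 480 genes at an unadjusted p under 0.05 and 1 called by DESeq2, and in hippocampal NGFC-like cells 0 members and 0 of 10037 genes (0%), with 320 genes at an unadjusted p under 0.05 and 1 called by DESeq2. For Chodl in hippocampal SST-like cells null libraries were all above WT, and for Tacr1 in hippocampal NGFC-like cells all below. The other members overlapped in each test. How many of all genes also did not overlap was not counted, so this says nothing particular about the members. The difference between regions in the genotype change of SST-like cells (hippocampus minus cortex) was −0.66 for Nos1, 0.82 for Tacr1 and 0.51 for Chodl, with an edgeR Benjamini-Hochberg adjusted p of 1.0 for each. Cortical NGFC-like cells had 1 null library with enough cells and were not tested.

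No gene of any list was called by edgeR in a genotype test. The values that follow are for cortical SST-like, hippocampal SST-like and hippocampal NGFC-like cells in that order, and over all genes the median log2 changes from WT to null were −0.02, −0.03 and −0.06, with 286 of 12488, 480 of 12488 and 320 of 10037 genes at an unadjusted p under 0.05. Genes of nitric oxide and cGMP had 1 of 23, 0 of 23 and 1 of 20 genes at an unadjusted p under 0.05, with medians of 0.13, −0.11 and −0.06. Tachykinins and their receptors had 1 of 5 in each, with medians of 0.13, −0.05 and −0.40, and the oxytocin and vasopressin genes 0 of 2 in each, with 0.22, −0.29 and −0.59. Peptide processing genes had 1 of 10, 1 of 10 and 2 of 9 (medians 0.06, 0.13 and 0.20). The genes known from Sst Chodl cells had 1 of 13, 0 of 13 and 1 of 8, with medians of 0.51, 0.25 and 0.30. The layilin family had 0 of 2 and 1 of 2 (medians 0.33 and −0.21) and none tested in NGFC-like cells, and the neighbours of Oxt 0 of 7, 0 of 7 and 0 of 5 (−0.06, 0.06 and 0.10). Among lists of other neurons, hypothalamic genes had 1 of 5, 1 of 5 and 1 of 4 (−0.08, 0.29 and −0.26), cholinergic genes 0 of 2, 0 of 2 and 0 of 1 (0.59, 0.31 and 0.70) and striatal genes 1 of 4, 1 of 4 and 0 of 3 (−0.20, 0.55 and −0.23). The medians of the peptide processing, Sst Chodl and cholinergic lists were above that of all genes in each test, with no test of that difference. A p that misses the threshold does not show that these genes did not differ.

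The share of SST-like cells with a Nos1 UMI, after thinning to 1000 UMIs, was 5.87, 14.7 and 4.45% in WT cortex and 6.0 and 28.2% in null cortex. In hippocampus it was 4.18, 4.16 and 1.82% in WT and 2.50 and 4.21% in null. Cells under 1000 UMIs were left out, 0, 67 and 83 in WT cortex, 0 and 73 in null cortex, 0, 153 and 23 in WT hippocampus and 0 and 17 in null hippocampus, and the unthinned shares were 11.2, 18.7 and 10.0%, 24 and 43.1%, 16.7, 7.75 and 17.8%, and 15.0 and 22.3%. After thinning the genotypes overlapped in both regions; unthinned, both null cortex libraries were above the WT cortex libraries. The cortical means after thinning of 8.35 ± 5.57% and 17.1 ± 15.7% differed by 8.74 percentage points (exact two-sided permutation p 0.5, n = 3 and 2), by −2.35 points without null cortex replicate 2, 19.8 points without null cortex replicate 1, 20.2 points unthinned (exact permutation p 0.1) and 2.21 points without the Chodl-leading cluster; the hippocampal means of 3.39 ± 1.36% and 3.35 ± 1.21% differed by −0.0345 points (exact permutation p 1), 4.55 points unthinned and 1.28 points thinned to 2000 UMIs, and the sign was the opposite in 10 of 14 alternatives. With 3 against 2 libraries the smallest p the test can give is 0.1. The permutation did not use the replicate numbers that WT and null share. Within these, null cortex was above WT cortex in replicates 1 and 2. Null hippocampus was below WT hippocampus in replicate 1 and above it in replicate 2.

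Levels of the list genes placed the signalling partners of the members. Oxtr (80.9 CPM), Pde1a (911), Gucy1a3 (158), Pcsk1n (2949), Pam (862), Penk (503), Crhbp (3048), Npy (69937) and Hcrtr1 (73.1) were highest in the Chodl-leading cluster, and so were Ache (315) and Slc5a7 (113) of the cholinergic list. Scg2 (1366), Tacr3 (11.9), Avp (124), Trh (63.3), Isl1 (43.9), Lhx8 (53.6), Slc18a3 (24.2) and Chat (11.5 CPM) were highest in the Oxt-leading cluster. These are pooled levels, and that of Avp came from 6 of 398 cells, mainly cells of WT cortex replicate 2 with 145, 119 and 58 UMIs. Tac1, the precursor of the ligand of Tacr1, was highest in a PVALB-like cluster at 2007 CPM, with 4.63 CPM in the Chodl-leading and 400 CPM in the Oxt-leading cluster.

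Nos1, Tacr1 and Chodl were highest in the same pair of clusters. Most Oxt UMIs were in 4 cells too shallow to show whether they lack Nos1. The promoters of the members are shown for these reasons. They are 300 bases each from RefSeq (GRCm38.p6), on the plus strand, at chr5:117866589-117866888 (Nos1), chr6:82402225-82402524 (Tacr1), chr16:78930698-78930997 (Chodl) and chr2:130575919-130576218 (Oxt); the RefSeq start of Nos1 lies inside the gene span given above. Capitals mark matches, on either strand, of TGACG, the core of the cAMP response element (in 20.8% of 32851 promoters), TAATTA, a homeodomain core (5.29%), TATAAA, a form of the TATA box (13.6%), and TGACCT, a core bound by nuclear receptors (16.3%). Only these exact letters were sought, so variants of these elements are not marked and may be present. Nos1 and Tacr1 had 1 match each of TGACG, on the minus strand, Oxt had TGACCT once on each strand, and Chodl had no match; no matches overlapped.
Nos1: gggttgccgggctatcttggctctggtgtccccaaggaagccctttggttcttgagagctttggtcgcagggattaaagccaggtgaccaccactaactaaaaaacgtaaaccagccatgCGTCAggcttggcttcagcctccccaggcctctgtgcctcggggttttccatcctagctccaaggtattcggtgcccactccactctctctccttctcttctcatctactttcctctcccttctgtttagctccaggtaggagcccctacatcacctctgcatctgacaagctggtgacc
Tacr1: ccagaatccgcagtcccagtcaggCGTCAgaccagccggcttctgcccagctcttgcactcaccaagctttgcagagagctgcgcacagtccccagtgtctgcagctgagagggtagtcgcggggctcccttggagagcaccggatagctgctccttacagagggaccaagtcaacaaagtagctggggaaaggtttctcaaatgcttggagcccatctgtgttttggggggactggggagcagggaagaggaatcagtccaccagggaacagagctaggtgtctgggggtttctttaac
Chodl: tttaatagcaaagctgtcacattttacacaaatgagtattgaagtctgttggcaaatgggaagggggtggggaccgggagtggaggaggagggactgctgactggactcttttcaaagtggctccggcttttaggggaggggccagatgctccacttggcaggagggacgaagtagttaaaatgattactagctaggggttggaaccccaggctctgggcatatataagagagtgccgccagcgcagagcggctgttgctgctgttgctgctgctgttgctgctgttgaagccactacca
Oxt: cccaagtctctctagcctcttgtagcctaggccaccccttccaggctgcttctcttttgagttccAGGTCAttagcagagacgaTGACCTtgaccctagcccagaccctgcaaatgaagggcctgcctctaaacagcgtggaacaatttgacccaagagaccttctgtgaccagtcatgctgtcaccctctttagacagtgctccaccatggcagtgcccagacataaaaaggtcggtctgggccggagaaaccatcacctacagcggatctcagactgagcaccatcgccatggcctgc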

How the data were processed

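The deposited values are UMI counts per gene and cell barcode; the authors aligned reads to mm10 with gene ends extended downstream and counted them with Cell Ranger (2.1.1 in the submitters' processing notes, 3.0.2 in the matrix header). The barcode suffix, a column of other text deposited with the counts, gave the library, and suffixes were assigned to replicates where the barcode total equalled the cell number in the methods. Barcodes outside 200 to 6000 detected genes, or with 30% or more of UMIs from mitochondrial genes, were removed. Seurat 5.3.0 (R 4.3.3) integrated the 4 matrices, each of a region and genotype, by CCA on 1997 of 2000 variable genes. The other variable genes were members left out. Libraries within a matrix were not aligned to each other. The clusters used 25 dimensions at resolution 1.0. Doublets were marked with Scrublet in Scanpy 1.11.5 at an expected rate of 0.06 and kept in the main values.

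UMIs were summed per library and class (at least 10 cells) and tested with edgeR 4.0.16 (quasi-likelihood, TMM, filterByExpr, Benjamini-Hochberg), with DESeq2 1.42.0 as an alternative. The edgeR fits were tried on simulated counts with the same dispersion for every gene and no replicate or chemistry effect. That trial does not show how they perform on these libraries. Libraries of 1 group are pools of animals. Python 3.11.15, NumPy 2.4.6, pandas 2.3.3 and SciPy 1.17.1 did the rest. Cortex and hippocampus libraries of 1 number came from the same animals, and their deviations from the WT group means correlated at 0.65, 0.61 and 0.38 in SST-like cells (12488 genes) and 0.48, 0.37 and 0.15 in NGFC-like cells (10037 genes), so the replicate block is given beside the region results.

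The members and lists were chosen with earlier results of these data known. The named genes were the 4 members; those of highest level and any called of 11 lists (members, nitric oxide and cGMP, tachykinins and receptors, oxytocin and vasopressin, peptide processing, genes known from Sst Chodl cells, layilin family, neighbours of Oxt, hypothalamic, cholinergic and striatal neurons); the 5 genes most correlated with each member over clusters, among genes reaching 20 CPM; and the 10 genes with the largest ratio of CPM + 5 in the Oxt-leading cluster. Other genes, among them Galr1 and Npy2r by library, were chosen after their values were seen. Gucy1a1, Gucy1b1 and Drd1 were not found under these symbols. Some values of single list and marker genes are not reported here.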

Additional observations from a re-analysis of the deposited data

How the results depend on the processing

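The genotype tests gave 0 called genes under the replicate block and without any 1 library (0 to 0). Without the low-count filter they gave 20 (cortical SST-like), 15 (hippocampal SST-like) and 22 (hippocampal NGFC-like), with DESeq2 3, 1 and 1, and at an adjusted p of 0.05 1 in each SST-like test. The SST-like region test gave 264 without the filter, 60 at 0.05, 429 with the block, 160 with DESeq2, 10 and 15 at resolutions 0.6 and 1.4, 14 without the Chodl-leading cluster, and 0 to 11 without any 1 library; NGFC-like gave 37 without the filter, 6 with the block, 3 with DESeq2 and 0 to 0.

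The log2 changes of the members ranged as follows, some with a change of direction. In cortical SST-like cells, the block gave Nos1 −0.22, Tacr1 −0.44 and Chodl −0.0090; leaving out a library gave ranges of −1.37 to 1.19, −2.60 to 1.12 (with −0.14 and −0.21) and −2.01 to 1.48, and adding the Th-led cluster gave Tacr1 −0.10. In hippocampal SST-like cells leaving out a library gave Nos1 −1.04 to 0.81 (with 0.07), Tacr1 −0.15 to 1.70 and Chodl 0.60 to 1.58, and in NGFC-like cells Nos1 −0.71 to −0.22 and Tacr1 −0.72 to −0.44. Over all alternatives the hippocampal SST-like change of Chodl reached 2.03. Leaving out a library, region changes ranged from −3.39 to −1.38 (Nos1), −3.46 to −1.72 (Tacr1) and −3.40 to −2.40 (Chodl) in SST-like cells, with Nos1 0.12 without the Chodl-leading cluster, and in NGFC-like cells from −0.090 to 0.45 (Nos1) and −0.39 to 0.13 (Tacr1, with 0.01). For the members, the block changed no call beyond those of Nos1, Tacr1 and Chodl in the SST-like region test. Within a region WT and null share 2 numbers, of which 1 also marks the earlier chemistry; the genotypes came from shared litters, but which libraries share one is not given in the sources used here. SST-like deviations of WT and null libraries of the same number correlated at 0.25 and 0.25 in cortex and 0.26 and 0.21 in hippocampus.

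The cortical difference in Nos1 share was 20.2 points unthinned, 13.0 thinned to 2000 UMIs, and −2.35 to 19.8 without a library. The hippocampal one was 4.55 unthinned, 1.28 thinned to 2000 UMIs, 0.50 with stricter cell filters, 0.912 and 0.287 at the other resolutions, 0.186 without doublets, 0.178 with the Oxt-leading cluster, and −0.888 to 0.819 without a library (with 0.364 and 0.352). The share of Oxt UMIs in Nos1 cells was 46.7% thinned, 3.23% with stricter filters, 23.7% without the cells of 100 or more Oxt UMIs and 24 to 40.3% without a library; the share of the cluster with Oxt was 0.651% with stricter filters, 1.02% without those cells and 0.348 to 2.52%. Alternatives on the Th-led, Chodl-leading and Oxt-leading clusters and on the cells of 100 or more Oxt UMIs were chosen after seeing the data. Where leaving out a library left 1 in a group, it was assumed to vary like the others. In the region test Tacr1 and Chodl gave no value without the Chodl-leading cluster, and Oxt gave one in no test with the low-count filter. The cause was not tested.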
